A study of Mus musculus with 8 samples.

Results

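A total of 423 chromatin regions had a lower measured level of acetylated histone H3 lysine 9 (H3K9ac) in every library from butyrate-treated mice than in any library from vehicle-treated mice. They were chosen from a table of 11251 regions by 2 conditions on the measured values. A region had to be well covered, with a mean CPM (reads scaled to the depth of the library) of at least 4.5 over 6 libraries, and its highest butyrate value had to lie below its lowest vehicle value. The first condition left 5736 regions (51% of the table), and the 423 regions were 7.37% of these and 3.76% of the table. The reverse order, with every butyrate library above every vehicle library, held in 348 well-covered regions (6.07%), and the groups overlapped in the other 4965. A random order of 3 against 3 libraries would place 5% of the well-covered regions, about 287, in each direction. The count of 423 is the outcome of the conditions, and nothing is read from its size. Because the values of the comparison itself chose the regions, their lower level in butyrate libraries is a description. Calls by tests over the whole table are given below and are no separate support for it.

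The libraries came from epithelial cells of the distal end of the small intestine (terminal ileum) of C57Bl/6 mice, all wild type, that received vehicle or 150 mM butyrate for 7 days. Each group had 3 H3K9ac libraries, S1 to S3 for vehicle and S4 to S6 for butyrate, and the 2 input libraries were not analysed here. The age of the mice and the route of treatment are not given in the labels. Whether the libraries stem from separate mice is not stated either, so p-values measure the spread between libraries, which may in part be technical. In such bulk libraries fewer cells of a type and less acetylation per cell cannot be told apart.

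H3K9ac is a mark that histone acetyltransferases place on nucleosomes around active promoters and at some enhancers, and that histone deacetylases remove. Butyrate is a short-chain fatty acid that bacteria of the gut release from fibre. It fuels intestinal epithelial cells and is an inhibitor of class I and class II histone deacetylases. In cultured cells such inhibitors are known to raise the expression of some genes and lower that of others.

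The promoters at which the difference was widest, or which the authors' deposited table called, ranged from dense CpG islands to sequences with few CpG, and a sample of them is shown for that range. For 6 genes the bases from 250 to 51 before the RefSeq start are printed 5′ to 3′ on the strand of the gene (RefSeq, GRCm38.p6, the same assembly as mm10). The stretch of Flvcr1 lies just outside the measured region, which ends within the promoter window. The last sequence is the central 300 bases of the region upstream of Gata4, on the plus strand. Capitals mark matches on either strand to any of 11 short motifs. They were the GC box (letters GGGCGG), the CCAAT box (those letters), the E-box (letters CACGTG) and the ETS motif (letters CCGGAAG). The others were the cyclic AMP response element or CRE (letters TGACGTCA), the NRF1 motif (letters GCGCNTGCG), the AP-1 motif (letters TGANTCA) and the GATA motif (letters AGATAA). The last were the HNF4 motif (letters CAAAGTCCA), the D-box (letters TTACNTAA) and the TATA box (letters TATAAA).
Irf2bp2, chr8:126594037-126594236, minus strand: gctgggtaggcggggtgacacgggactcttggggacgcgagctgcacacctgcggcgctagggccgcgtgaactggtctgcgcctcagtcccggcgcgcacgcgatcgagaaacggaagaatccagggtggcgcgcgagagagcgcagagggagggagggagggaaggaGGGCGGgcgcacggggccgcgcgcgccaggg
Nfil3, chr13:52981090-52981289, minus strand: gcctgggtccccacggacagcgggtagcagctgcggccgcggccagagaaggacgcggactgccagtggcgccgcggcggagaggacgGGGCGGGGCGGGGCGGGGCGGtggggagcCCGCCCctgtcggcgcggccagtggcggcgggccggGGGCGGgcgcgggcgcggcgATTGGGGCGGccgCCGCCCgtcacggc
Flvcr1, chr1:191026241-191026440, minus strand: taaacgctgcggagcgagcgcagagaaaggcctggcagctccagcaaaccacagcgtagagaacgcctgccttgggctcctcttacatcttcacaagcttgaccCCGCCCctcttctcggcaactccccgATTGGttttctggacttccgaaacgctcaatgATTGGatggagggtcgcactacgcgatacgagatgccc
Cgn, chr3:94786533-94786732, minus strand: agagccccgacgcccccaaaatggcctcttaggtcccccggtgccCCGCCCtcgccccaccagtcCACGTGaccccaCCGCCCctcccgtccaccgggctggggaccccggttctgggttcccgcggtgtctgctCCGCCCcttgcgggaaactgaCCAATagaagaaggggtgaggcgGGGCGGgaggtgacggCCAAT
Cfl1, chr19:5490205-5490404, plus strand: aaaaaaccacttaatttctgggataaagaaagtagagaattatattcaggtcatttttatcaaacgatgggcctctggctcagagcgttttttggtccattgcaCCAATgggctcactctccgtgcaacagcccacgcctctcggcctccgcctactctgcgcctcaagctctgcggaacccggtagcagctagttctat
Ttc22, chr4:106622199-106622398, plus strand: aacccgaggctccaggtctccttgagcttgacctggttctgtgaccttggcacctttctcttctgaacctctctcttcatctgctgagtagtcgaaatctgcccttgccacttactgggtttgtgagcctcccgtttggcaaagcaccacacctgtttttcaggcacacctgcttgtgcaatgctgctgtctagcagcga
Gata4 upstream region, chr14:63270217-63270516, plus strand: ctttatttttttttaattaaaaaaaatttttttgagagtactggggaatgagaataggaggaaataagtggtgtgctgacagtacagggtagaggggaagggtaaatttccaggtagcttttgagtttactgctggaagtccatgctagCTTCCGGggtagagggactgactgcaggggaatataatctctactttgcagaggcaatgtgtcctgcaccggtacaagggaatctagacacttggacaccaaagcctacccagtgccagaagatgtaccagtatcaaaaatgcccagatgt

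The GC content of these stretches was 84% at Nfil3, 73% at Irf2bp2, 70.5% at Cgn, 57.5% at Flvcr1, 53% at Ttc22 and 49% at Cfl1. The centre of the Gata4 upstream region had 43.3% GC and 2 CpG in 300 bases, against 34 CpG in 200 bases at Nfil3 and 4 CpG in 200 bases at Ttc22. Nfil3 held 8 GC boxes, of which 4 stood in tandem and shared bases with each other, and 1 CCAAT box that shared a base with a GC box. Cgn held 4 GC boxes, 2 CCAAT boxes and 1 E-box. Flvcr1 held 1 GC box and 2 CCAAT boxes, Irf2bp2 a single GC box, Cfl1 a single CCAAT box and Ttc22 no match. The centre of the Gata4 upstream region held 1 ETS match. Over its whole 3075 bases that region held 5 CCAAT, 3 AP-1, 2 GATA and 1 ETS matches and no GC box. A match describes letters only and shows no binding.

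Among the 423 regions, 306 contained a RefSeq start of their gene with a promoter window of 300 bases (250 before the start and 50 after). A GC box was found in 77.8% of these windows, in 71.4% of the 4048 windows of the other well-covered regions and in 35.7% of all 32851 RefSeq windows. The ETS motif was found in 18.6% against 23.4% of the other well-covered windows (8.86% of all RefSeq windows). The CRE was found in 2.94% against 4.17% (1.79% of all), and the E-box in 7.84% against 9.86% (7.15% of all). The CCAAT box stood in 34.6% against 33.0% (37.4% of all), NRF1 in 16.0% against 16.8% (6.31% of all) and AP-1 in 5.23% against 4.22% (7.81% of all). A GATA match was present in 3.59% of the windows and in 4.52% of the other well-covered windows (11.2% of all), and a TATA box in 6.54% against 5.83% (13.6% of all). HNF4 and D-box matches were in 2 windows each, 0.654% of the 306, and in 0.420% and 1.09% of the other well-covered windows (0.475% and 2.32% of all). These shares are descriptive, and overlapping matches were each counted.

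The region with the largest difference lay upstream of Gata4, a zinc-finger transcription factor that specifies the proximal small intestine. It spans chr14:63268829-63271904 (mm10), was annotated as intergenic at -25096 bp from the nearest start, and holds a GENCODE start of alternative Gata4 transcripts. Its RPKM, the depth-scaled reads per kilobase of region, was 3.30, 3.88 and 3.35 in vehicle and 2.01, 1.71 and 2.64 in butyrate. All 3 butyrate libraries were low, S5 the lowest, and the lowest vehicle library was 24.9% above the highest butyrate library. The log2 ratio of the mean butyrate to the mean vehicle RPKM was -0.73 (39.6% lower), at a mean of 184 reads per library.

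The main Gata4 promoter region, chr14:63242312-63249303, also met the conditions with a smaller difference. Its RPKM was 3.70, 3.44 and 3.56 in vehicle and 3.33, 3.03 and 3.28 in butyrate, a log2 ratio of -0.15 at 504 reads. The vehicle libraries were all above the butyrate libraries, by 3.17% at the closest pair. Ctsb, which encodes the lysosomal protease cathepsin B, lies 123 kb from the Gata4 promoter region, and its start region had 4.48, 5.26 and 4.18 in vehicle and 3.06, 3.09 and 3.65 in butyrate. The Neil2 region between them had only 17.3 mean reads and overlapped between the groups, with a log2 ratio of -0.01. The 3 regions at Gata4 and Ctsb were chosen for being lower in every butyrate library. The Neil2 region, at a mean CPM of 0.84, was too weakly covered to be chosen in any order. Ctsb passed the coverage minimum only through its vehicle level, with a mean CPM of 5.54 in vehicle and 3.90 in butyrate.

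**Figure D1:**
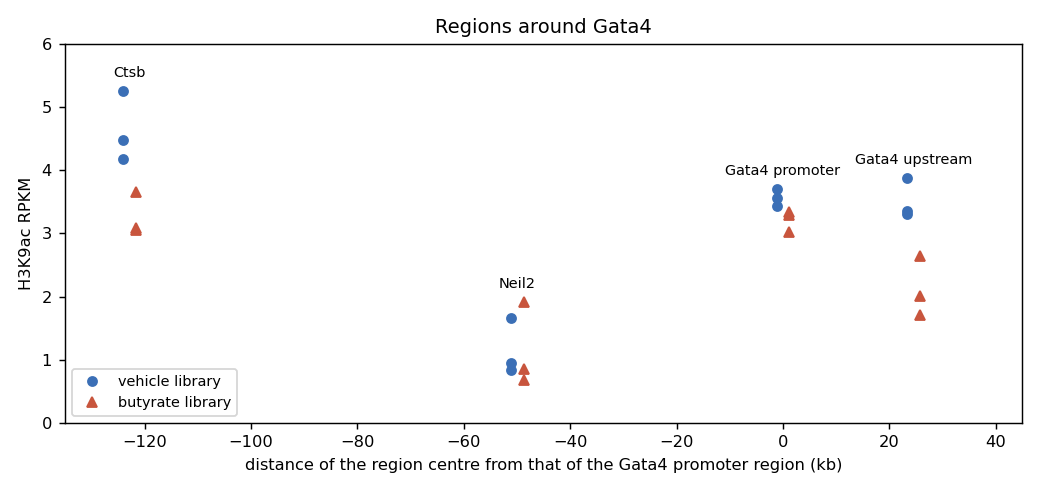
H3K9ac RPKM (vertical axis) of 4 regions against the distance of each region's centre from that of the Gata4 promoter region in kb (horizontal axis). Circles are the 3 vehicle and triangles the 3 butyrate libraries, drawn slightly apart. The Gata4 upstream region lies at 3.30 to 3.88 in vehicle and 1.71 to 2.64 in butyrate, the promoter region differs less, and the Neil2 region overlaps.

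Irf2bp2 gave the best-covered of the 423 regions, with a mean of 1063 reads per library. It encodes a corepressor that was found as a partner of the transcription factor IRF2. Over chr8:126587933-126595524 its RPKM was 7.52, 7.66 and 7.14 in vehicle and 5.97, 5.40 and 5.90 in butyrate. The 2 groups were each narrow and lay 19.7% apart at their nearest libraries, with a log2 ratio of -0.37.

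Nfil3, a basic leucine zipper repressor that shares binding sites with the circadian PAR-domain factors, had 3.74, 3.47 and 2.85 RPKM in vehicle and 2.49, 2.34 and 2.29 in butyrate at chr13:52977997-52981998. The third vehicle library was the low one, and still stood 14.6% above the highest butyrate library. Arntl, which encodes the clock activator BMAL1, had 2.93, 2.90 and 2.55 against 2.41, 2.16 and 2.33. Cry1, a repressor of the same clock loop, had 4.77, 4.61 and 4.59 against 3.91, 4.03 and 3.90. Both showed the same order with log2 ratios of -0.28 and -0.24. Of the 14 well-covered regions of the circadian list, 3 (21.4%, against 7.37% of all well-covered regions) were among the 423, none was in the reverse order (6.07% of all), and 8 had a lower butyrate mean.

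Other regions with a wide space between the groups belonged to genes of varied roles. The region A230020J21Rik lies over the shared start of this non-coding RNA and of Flvcr1, a haem exporter and choline transporter, at chr1:191024379-191026239. It had 4.42, 4.16 and 4.03 RPKM in vehicle and 3.10, 2.82 and 2.84 in butyrate, a gap of 30.0% between the nearest libraries, the widest of all 423. Ttc22, a gene of the tetratricopeptide repeat family, had 4.94, 4.89 and 5.25 against 3.53, 3.54 and 3.76, a gap of 29.9%. Vstm5, an immunoglobulin-domain membrane protein, had 4.24, 4.38 and 4.36 against 3.01, 2.76 and 3.49. In all of these the 3 vehicle libraries clustered within a narrow span, and the butyrate libraries lay apart from them.

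The 2nd to 4th largest differences were less even across libraries. The first 2 of them passed the coverage minimum only through their vehicle level, with a mean butyrate CPM of 3.61 and 3.62. An intronic region assigned to 2010300C02Rik, 54687 bp inside the gene, had 3.69, 3.74 and 2.87 in vehicle and 2.03, 2.14 and 2.52 in butyrate, at 97.5 mean reads. Pitx1, a homeodomain factor of hindlimb identity, had 5.29, 4.78 and 3.76 against 3.00, 3.00 and 3.26, at 96.3 reads. The region of the non-coding RNA 5930403L14Rik holds a start of Prdm16, a chromatin regulator of brown fat and stem cells, and had 5.80, 5.18 and 5.49 against 4.74, 2.92 and 3.69. At the first 2 of these the low vehicle library was S3, 13.6% and 15.2% above the highest butyrate library, and at Prdm16 the high butyrate library S4 came within 9.21% of the vehicle libraries.

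**Figure D2:**
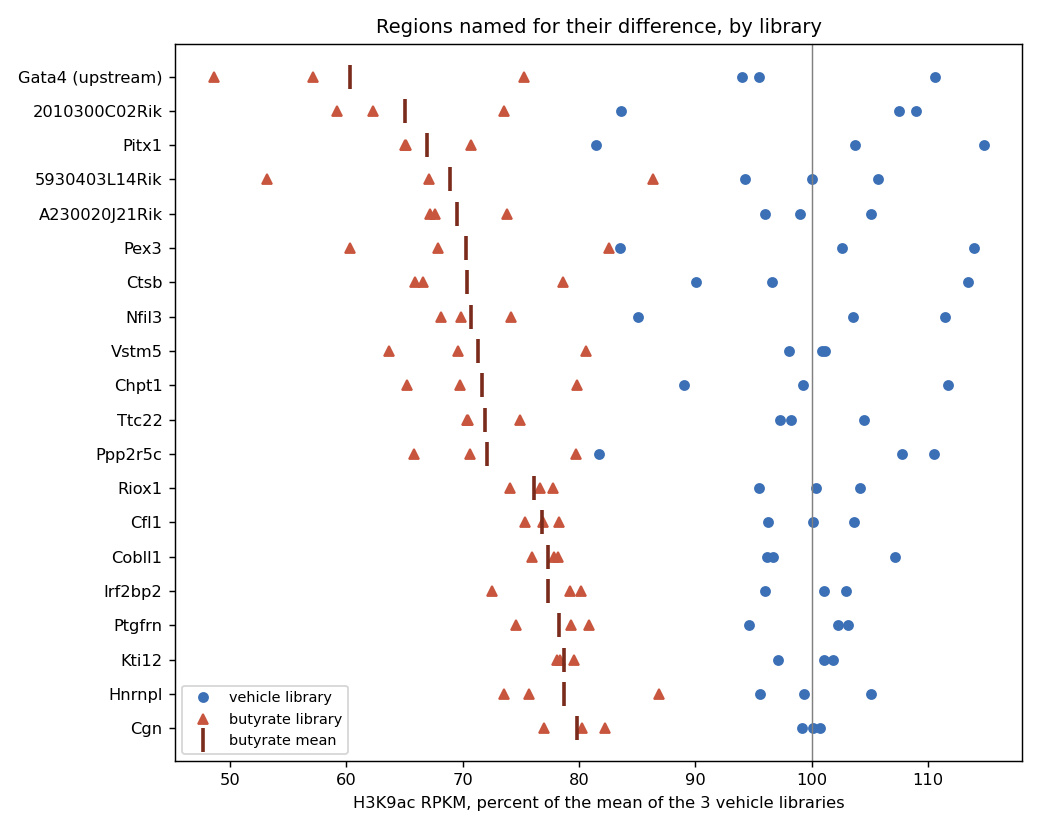
H3K9ac RPKM of each library as a percent of the mean of the 3 vehicle libraries (horizontal axis) for the regions with the largest log2 ratio, the widest gap or a call in the authors' deposited table (vertical axis). Circles are vehicle libraries, triangles butyrate libraries and bars the butyrate mean. Gata4 upstream has the lowest butyrate mean, 39.6% below vehicle, and in Pex3 the groups nearly touch, with a gap of 1.1%.

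Few of the 423 regions were called by a test over the whole table. The authors' deposited table called 17 of 11251 regions (0.151%) lower at a false discovery rate (FDR) of 0.1, and 10 of them were among the 423. The authors' deposited table gave Irf2bp2 an FDR of 0.0018, Gata4 upstream 0.00528, Nfil3 0.024, and A230020J21Rik and Cgn 0.0332 each. The authors' deposited table gave Vstm5 an FDR of 0.0507, Hnrnpl, Ttc22 and Cfl1 0.0682 each, and Ptgfrn 0.0731. These calls use the same libraries as the choice of regions and are no separate support.

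Limma's voom on reads recovered from the RPKM, run on 9048 regions with at least 25 mean reads, called 5 lower regions (0.0553%), of which 4 were among the 423. Its adjusted p was 0.000287 for both Irf2bp2 (log2 fold change -0.37, SE 0.07) and Gata4 upstream (-0.71, SE 0.13). Voom's adjusted p was 0.0173 for Nfil3 (-0.50, SE 0.11) and 0.038 for 5930403L14Rik over the Prdm16 start (-0.55, SE 0.13). Without each library in turn, voom's adjusted p stayed between 0.000719 and 0.0171 for Irf2bp2 and between 0.000194 and 0.0446 for Gata4 upstream. The Nfil3 call was lost without S1 (adjusted p 0.303), S2 (0.0998), S4 (0.0633), S5 (0.0827) or S6 (0.193) and the Prdm16 call without S1 (0.208), S3 (0.138), S5 (0.426) or S6 (0.197). Limma on log2(RPKM + 1), the test set for this table, called none of 10529 regions after adjustment (0%; smallest adjusted p 0.486). At an unadjusted p under 0.05 it gave 412 lower regions (3.91%), and 144 of the 423 were among these. Voom and limma used the same libraries as the choice of regions. Their values, also those without 1 library, are no separate support.

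The 423 differences were small as a whole. The log2 ratio ran from -0.73 to -0.04 with a median of -0.23, so the median region was 14.5% lower in butyrate. The ratio of vehicle to butyrate was above 1.5 in 2 regions and above 1.2 in 163, and below 1.1 in 51. The median RPKM was 4.13 in vehicle and 3.49 in butyrate. Over all well-covered regions the median log2 ratio was 0.00. The deposited values summed to nearly the same CPM over all regions in every library, 70042 to 70936. How they were scaled is not given in the sources used here, so each difference is to be read relative to the other regions.

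The space between the groups was narrow in most of the 423 regions. The lowest vehicle library exceeded the highest butyrate library by a median of 3.62%, by under 1% in 67 regions, by over 10% in 64 and by over 20% in 10. In 370 regions the gap was under 1 standard deviation of counting error for the 2 libraries that faced each other, in 53 it was over 1 and in 7 over 2. The mean depth per region was 96.3 to 1063 reads with a median of 191, close to the 181 of the other well-covered regions. Libraries S2 and S5 were the shallowest, with 1261630 and 1255251 reads in regions against 1449476 to 1828591 in the other 4. No library alone set the facing pair: S1, S2 and S3 were the lowest vehicle library in 138, 132 and 153 regions, and S4, S5 and S6 the highest butyrate library in 141, 127 and 155.

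At the edge of the conditions, Sf1, a splicing factor, was just inside with 3.19077 RPKM in its lowest vehicle and 3.19064 in its highest butyrate library. Sec61b, a subunit of the protein translocon, was just outside with 2.85609 and 2.85619. On coverage, Pitx1 was just inside at 4.51 mean CPM and Arhgef18, a guanine nucleotide exchange factor, just outside at 4.46. The vehicle level alone carried 32 regions over the coverage minimum, since their butyrate mean was below it, and 391 passed on both means. Among the 12 regions with the largest ratio, the 32 included 2010300C02Rik, Pitx1, Pex3, Ctsb and a Ppp2r5c region.

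**Figure D3:**
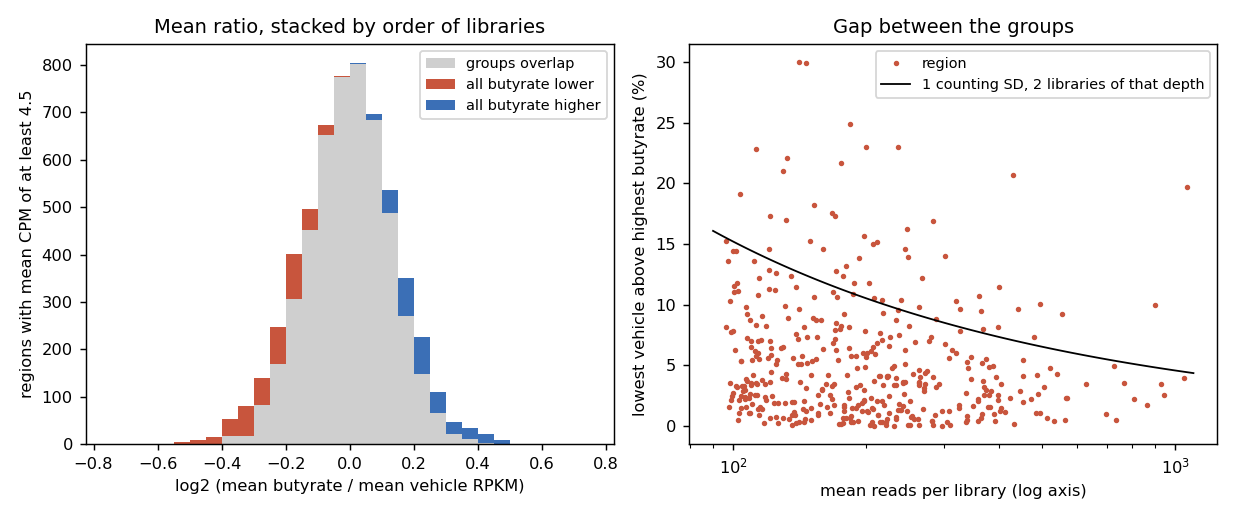
Left: number of well-covered regions (vertical axis) by log2 ratio of mean butyrate to mean vehicle RPKM (horizontal axis), stacked by whether all butyrate libraries were lower, all were higher or the groups overlapped. Right: for each of the 423 regions, the percent by which the lowest vehicle library exceeded the highest butyrate library (vertical axis) against mean reads per library on a log axis (horizontal axis), with a line at 1 counting standard deviation. Most points, 370 of 423, lie under their own counting error.

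The regions were grouped by lists of genes of the ileal epithelium and of general cell functions. Limma on log2(RPKM + 1) called no region of any list in either direction after adjustment. The regions of listed genes that voom called lower were Irf2bp2, Gata4 upstream and Nfil3, given above, and a weak Coro2a region, given below. Regions that voom called higher are not described here. The counts below are orders of libraries, not calls, to be read against 7.37% lower and 6.07% higher among all well-covered regions. The lists were chosen with earlier results of these data known and hold genes already called, so their shares are descriptive only.

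Intestinal transcription factors had 7 of 24 well-covered regions among the 423 (29.2%) and 1, Hnf4g, in the reverse order. The list's median log2 ratio was -0.09, and 19 of the 24 had a lower butyrate mean. Besides the 2 Gata4 regions they included Elf3, Klf5, Ets2 and a region at 4943 bp from the start of Hes1. Elf3, an epithelial ETS factor, had 6.93, 6.12 and 6.21 RPKM in vehicle and 5.44, 5.57 and 5.35 in butyrate over chr1:135251508-135258646, with 901 mean reads. Its groups lay 9.94% apart.

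Klf5, a Krüppel-like factor of proliferating crypt cells, had 4.21, 3.66 and 3.56 against 3.36, 3.12 and 3.42 over the longest of the 423 regions, 13794 bp. Here S1 was high, and without it the log2 ratio moved from -0.20 to -0.13. Ets2, an ETS factor, had 5.48, 5.09 and 5.08 against 4.97, 4.35 and 4.59, and Hes1, the Notch target and repressor of secretory fate, 4.86, 4.53 and 4.83 against 4.30, 4.06 and 4.12. The space between the groups was 2.29% at Ets2 and 5.39% at Hes1. This Hes1 region is intergenic and holds no protein-coding start. The Hes1 regions nearer the start, at -1381 and 1316 bp, overlapped between the groups, with log2 ratios of 0.03 and -0.16.

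Genes of the actin cytoskeleton and the brush border had 11 of 49 well-covered regions among the 423 (22.4%) and 2, Ezr and Myh9, in the reverse order, with a median log2 ratio of -0.10. Cfl1, which encodes the actin-severing protein cofilin, had 3.60, 3.74 and 3.87 RPKM in vehicle and 2.87, 2.81 and 2.92 in butyrate over chr19:5489249-5492621. Both groups were tight and lay 23.0% apart. Its paralogue Cfl2 had 6.34, 6.15 and 6.71 against 5.82, 6.01 and 4.87. Pfn1, the actin monomer-binding profilin, had 5.60, 5.67 and 5.10 against 4.68, 4.58 and 4.96. Both kept the order with gaps of only 2.28% and 2.84%.

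The same list held parts of the microvillus. Pls1, the bundling protein plastin of the brush border, had a promoter region with 2.48, 2.55 and 2.65 against 2.39, 2.33 and 2.45. A further Pls1 region 29941 bp inside the gene had 2.95, 3.06 and 2.90 against 2.79, 2.37 and 2.71. Cdhr2, Cdhr5 and Ush1c encode members of the complex that links the tips of microvilli, and their log2 ratios were -0.12, -0.19 and -0.12. Cdhr5 had 4.65, 4.81 and 4.42 RPKM against 4.06, 4.37 and 3.78. The gaps at these 3 genes were 0.356% to 3.41%, so that the order rested on few reads. Coro2a, a coronin, had 4.96, 5.23 and 5.50 against 4.60, 4.47 and 4.79 at 765 reads.

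Cell junction genes had 6 of 37 well-covered regions among the 423 (16.2%) and 2, Ctnnd1 and Epcam, in the reverse order. Cgn, which encodes the tight-junction adaptor cingulin, had 3.06, 3.09 and 3.11 RPKM in vehicle and 2.48, 2.54 and 2.38 in butyrate over chr3:94780250-94787579. Its vehicle libraries were almost equal, and the log2 ratio was -0.33 at 430 reads. F11r, the adhesion molecule JAM-A, had 4.21, 4.09 and 4.30 against 3.49, 4.0 and 3.71, and Cdh1, E-cadherin, 4.33, 4.01 and 3.88 against 3.35, 3.83 and 3.70. Both F11r and Cdh1 were within 2.30% of overlap.

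Lipid and cholesterol genes had 6 of 29 well-covered regions among the 423 (20.7%) and 3 in the reverse order, with a median log2 ratio of -0.04. Chpt1, which makes phosphatidylcholine, had 2.18, 2.43 and 2.73 RPKM against 1.71, 1.60 and 1.95, a log2 ratio of -0.48. Mttp, which loads lipid onto apolipoprotein B, had 3.15, 3.18 and 3.13 against 2.85, 2.87 and 2.83. Its difference was small, with a log2 ratio of -0.15, and the groups lay 9.25% apart. Its libraries were close to each other within both groups, a closeness that the conditions favour. Abcg5, a sterol exporter that shares its start region with Abcg8, had 3.35, 3.87 and 3.57 against 3.34, 3.00 and 3.07. Apoa1, the main protein of high-density lipoprotein, had 5.99, 6.04 and 6.60 against 5.91, 5.96 and 5.86, and without S3 its log2 ratio of -0.07 became -0.02.

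Xenobiotic, oxidative and iron genes had 5 of 24 well-covered regions among the 423 (20.8%) and 1 in the reverse order, with a median log2 ratio of -0.06. Fth1 and Ftl1, the heavy and light chains of the iron store ferritin, had log2 ratios of -0.28 and -0.35. Fth1 had 3.34, 3.68 and 3.04 RPKM against 3.02, 2.56 and 2.68, and Ftl1 3.77, 4.22 and 3.67 against 3.47, 2.70 and 2.96. The groups nearly met at Fth1, 0.756% apart, and less so at Ftl1, 5.63% apart. Nfe2l2, the oxidative stress factor NRF2, had 3.52, 3.25 and 3.48 against 3.09, 2.51 and 3.19, and without S5 its log2 ratio moved from -0.22 to -0.12.

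Enzymes and readers of histone acetylation and their corepressors had 5 of 38 well-covered regions among the 423 (13.2%), with 2 in the reverse order, among them the acetyltransferase gene Ep300, and a list median of 0.01. Besides Irf2bp2 these were Brd2 and Brd3, which bind acetylated histones, the corepressor Ctbp2, and Ncor1, the corepressor that holds histone deacetylase 3. Brd2 had 5.57, 5.80 and 5.53 RPKM against 5.15, 4.69 and 5.34. Ncor1 had 6.81, 6.60 and 6.08 against 5.88, 5.51 and 5.59, over a start region that it shares with Pigl. The gaps at both were under 3.5%, against 19.7% at Irf2bp2.

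Growth signalling genes of the EGF receptor and Hippo list had 4 of 41 regions among the 423 (9.76%) and none in the reverse order. Egfr itself had 6.20, 6.04 and 5.63 RPKM against 5.36, 4.29 and 5.17, with a log2 ratio of -0.27 that became -0.18 without S5. Akt1, the kinase downstream of phosphoinositide 3-kinase, had 4.62, 4.32 and 4.67 against 3.81, 3.85 and 3.86. The groups lay 11.7% apart at Akt1 and 5.19% apart at Egfr.

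The Wnt and crypt list had 3 of 22 (13.6%; Fzd5, Prom1 and a Bcl9 region), none in the reverse order, and a positive median log2 ratio of 0.03. That Bcl9 region was annotated as intergenic at -70182 bp and holds a GENCODE start of the gene. The Bcl9 region at -122 bp overlapped between the groups, with a log2 ratio of 0.25. The fatty acid oxidation and PPAR list had 3 of 22 (Acadl, Pparg and Slc25a20) and glycolysis 2 of 15 (Tpi1 and Pgam1), each with 1 in the reverse order. The immediate early list had 4 of 28 among the 423 (Egr1, Klf10, Mafk and Zfp36l2) and as many, Fos, Jun, Dusp1 and Zfp36, in the reverse order. Egr1, a zinc-finger immediate early factor, had 4.74, 4.94 and 4.81 RPKM against 4.10, 4.53 and 4.34, so members of this list stood on both sides.

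Lists of general functions were near or below the share of all regions. Respiratory chain and mitochondrial ribosome genes had 7 of 90 (7.78%), with 5 in the reverse order. Rab, Arf and Arl genes had 5 of 64 (7.81%), among them Rab3ip, which is no GTPase, with 7 in the reverse order. Ribosomal protein symbols had 4 of 63 (6.35%), among them the kinase Rps6ka1, with 6 in the reverse order. Splicing factors had 4 of 72 (5.56%) with 3 in the reverse order, and solute carriers 6 of 110 (5.45%) with 2. The proteasome and ubiquitin protease list had 3 of 60 (5.0%) with 3 in the reverse order, and zinc finger protein symbols 5 of 132 (3.79%) with 10. Chromatin methylation and remodelling genes had 2 of 61 (3.28%; Chd8 and Setd1a) with 7 in the reverse order, and stress genes 2 of 50 (4.0%) with 6 in the reverse order.

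The NF-kB and epithelial inflammation list had 2 of 29 (6.90%), Stat6 and Nlrp6, with 1 in the reverse order. Nlrp6, an inflammasome sensor of the gut epithelium, had 3.27, 2.90 and 3.12 RPKM against 2.25, 2.17 and 2.39, a gap of 21.0%, wide for its list. The Notch list had 1 of 14 (Hes1) and 1 in the reverse order, and the cell cycle list 1 of 18 (E2f3) and 2 in the reverse order. The BMP and TGF-beta list had 1 of 25 (Smurf2) and 3 in the reverse order, and the interferon list 1 of 29 (Tapbp) and 2 in the reverse order. The keratin list had none of 7 and 1 in the reverse order, and the list of butyrate transport, sensing and activation none of 7 in either order, with a median log2 ratio of -0.12.

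**Figure D4:**
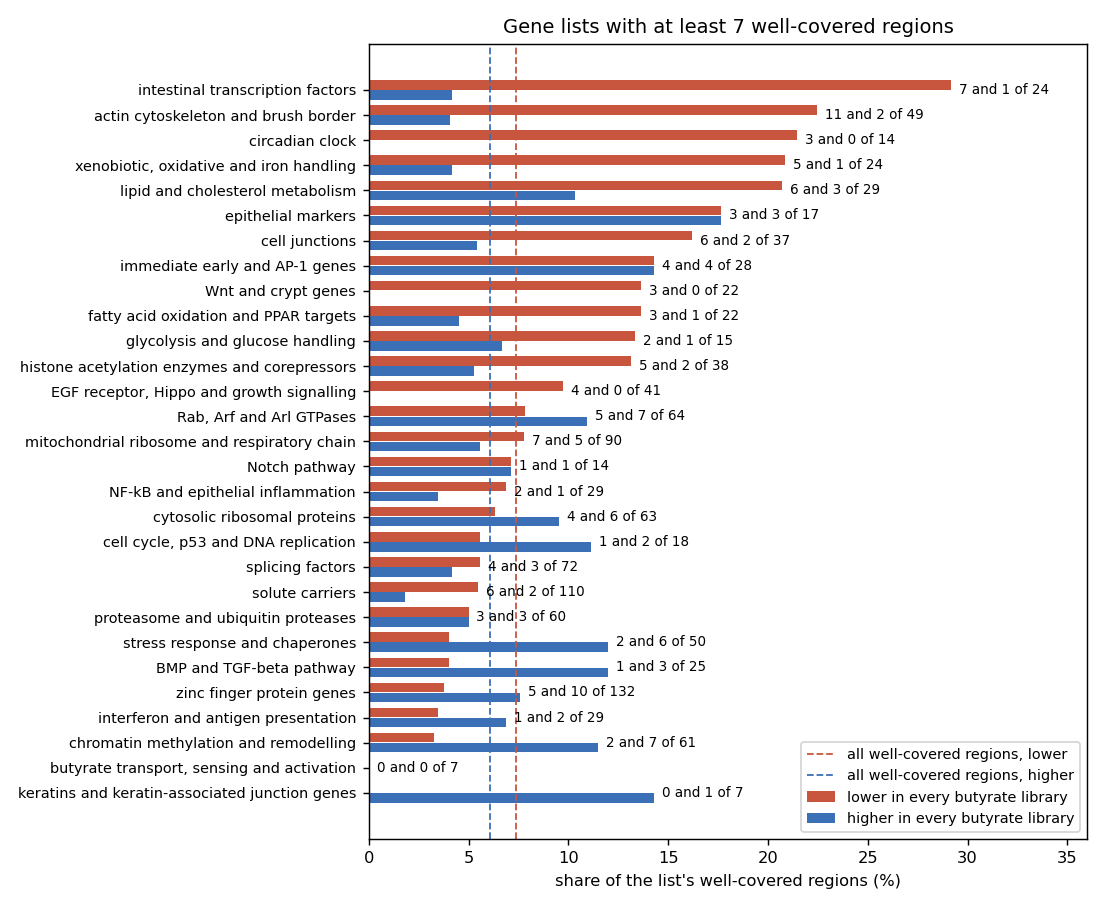
Share of each list's well-covered regions (horizontal axis, percent) that was lower in every butyrate library (red) or higher in every butyrate library (blue), for lists with at least 7 well-covered regions (vertical axis). Labels give both counts and the number of regions, and dashed lines the shares over all well-covered regions, 7.37% and 6.07%. Intestinal transcription factors stand highest at 29.2%, among lists chosen with earlier results of these data known.

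The labelled cell type was checked against markers. Regions were present for 16 of 17 epithelial markers, with summed RPKM of 86.6 to 93.3 in vehicle and 84.7 to 91.6 in butyrate libraries. Immune markers had a region near the start for 2 of 11 genes (Ptprc and Laptm5; 1.66 to 2.30 in vehicle, 1.76 to 3.06 in butyrate) and stromal markers for 1 of 11 (Cdh5; 1.36 to 1.99 and 1.49 to 1.81). Tuft cell markers had 8 of 24 genes with a region (12.2 to 13.2 and 12.1 to 13.4), goblet and Paneth markers 7 of 25 (11.4 to 14.3 and 9.81 to 13.5) and enteroendocrine markers 1 of 22. The ranges of the groups overlapped in each of these lists. Cd3e, Cd79a, Col1a1, Dclk1, Muc2 and Chga had no region. Regions were present for other tuft cell markers such as Trpm5, Gfi1b and Il17rb, and for goblet and Paneth markers such as Agr2, Spink4 and Foxa3. A region assigned to the B-cell gene Ms4a1 was among the 423, but it lies 33851 bp from that gene's start and holds the start of Ms4a12. The part of cell composition in the differences was not tested.

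The 423 regions lay mostly at gene starts, though less tightly than the rest. Their centres were within 1 kb of an annotated start in 323 cases (76.4%), against 83.7% of the other well-covered regions and 85.6% of those in the reverse order. Within 5 kb the shares were 96.5% and 97.5%. The annotation of the centre was an intron in 224 regions (53%), promoter in 114 (27.0%, against 28.5% of the others), exon in 39, 5′ UTR in 18 and intergenic in 15 (3.55% against 2.05%). They were somewhat longer, with a median of 2376 bp against 2236 bp, and 27 (6.38%) were over 5 kb against 4.63% of the others. A protein-coding start of GENCODE lay in 398 of them (94.1% against 96.0%).

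The regions resembled the rest in base composition. Their median GC content was 54.4% against 53.7% of the other well-covered regions. The ratio of observed to expected CpG had a median of 0.637 against 0.648, and exceeded 0.6 in 56.7% against 61.5%. These are shares of single sets with no test.

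**Figure D5:**
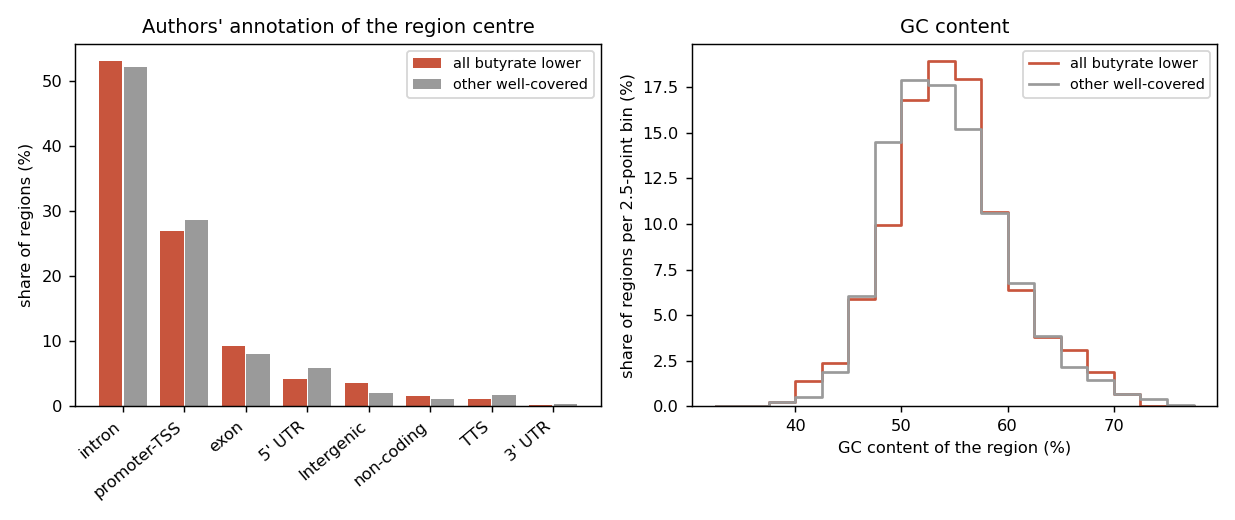
Left: share of regions in percent (vertical axis) by the authors' annotation of the region centre (horizontal axis), for the 423 regions (red) and the other well-covered regions (grey). Right: share of regions in percent per bin of 2.5 points (vertical axis) by GC content of the region in percent (horizontal axis), in the same colours. The 2 sets are close in both, with introns at 53% of the 423 regions.

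Some of the regions were neighbours. Another of the 423 lay within 100 kb of 57 regions (13.5%), against 21 (6.03%) of the 348 in the reverse order, and within 50 kb of 34 (8.04%) against 10 (2.87%). The smaller set has fewer possible neighbours, and neighbouring regions of 1 library are not independent. They formed 27 groups, of which 3 held 3 regions. Each group was drawn from its first to its last member. Its share of members is therefore high by construction and is not to be read against 7.37%. On chromosome 4, 3 of 4 well-covered regions in 94.3 kb were members. They were Trnau1ap, which helps selenocysteine insertion, Snhg3, a host of small nucleolar RNAs, and Phactr4, a regulator of actin and protein phosphatase 1, with log2 ratios of -0.36, -0.28 and -0.37.

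On chromosome 11, 3 of 5 well-covered regions in 107 kb were members: Slc25a10, the mitochondrial dicarboxylate carrier, P4hb, protein disulfide isomerase, and Alyref, an mRNA export factor. Their log2 ratios were -0.19, -0.18 and -0.06, and without S3 that of Slc25a10 became -0.13. On chromosome 18 the group of Pcdh1, 1700086O06Rik and Gnpda1 held 3 of 4. Pairs included Elf3 with Rnpep, Cgn with Pogz, Pfn1 with Mink1, and the brush-border gene Cdhr2 with Rnf44.

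Other regions were assigned to the genes of the 423. A well-covered region in the same order would itself be a member, so this set lacks such regions. It therefore cannot show how often other regions of a gene follow. Of 39 such regions with at least 25 mean reads, 17 (43.6%) had a lower mean in butyrate. The median log2 ratio of the 39 was 0.03. Among all 9048 regions at that depth, which include the 423, 49.8% had a lower mean. The order among the 39 was lower in 1, higher in 2 and overlapping in 36. With a minimum of 2 CPM and members included, 564 of 8063 regions were lower and 489 higher. The lower one was a weak region at -8499 bp from a start of Coro2a, with 3.03, 2.06 and 3.32 RPKM in vehicle and 0.720, 1.43 and 1.28 in butyrate at 26.5 reads. It stood in the same order as the large Coro2a region and was the fifth region that voom called lower. That call was lost without S1 (voom's adjusted p 0.16), S3 (0.169), S4 (0.283) or S6 (0.0738).

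The 2 higher ones belonged to genes with several starts. At Lmna, which encodes the nuclear lamins A and C, the member region at chr3:88502015-88503284 had 6.87, 6.98 and 7.28 in vehicle and 5.93, 5.94 and 6.76 in butyrate. A region of the same gene at chr3:88492432-88493960, near a downstream start, had 2.89, 1.94 and 1.90 in vehicle and 2.95, 4.17 and 3.11 in butyrate, with 91.3 reads. At Pik3r1, which encodes the regulatory subunits of phosphoinositide 3-kinase, the member region had 6.42, 6.66 and 6.11 against 5.75, 4.89 and 6.10. A weaker region at -5740 bp from a downstream start had 0.865, 1.02 and 1.05 against 1.09, 1.80 and 1.38. Both genes thus held a lower and a higher region, with log2 ratios of -0.18 and 0.60 at Lmna and -0.20 and 0.54 at Pik3r1; without S5 the values at Pik3r1 moved to -0.11 and 0.33, and its member region was 0.289% from overlap.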

How the data were processed

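H3K9ac was measured by chromatin immunoprecipitation and sequencing in 3 vehicle and 3 butyrate libraries. The submitters' processing notes name mm10, STAR, Picard, HOMER and edgeR, without roles or versions. How regions were called and merged, and whether before or after pooling, is not given in the sources used here. Per the file headers, the deposited table gives RPKM per library, mean CPM per group, the authors' log2 fold change and log2 CPM, and the authors' p-value and FDR, with status Down at an FDR of 0.1. The group of a library (vehicle S1 to S3, butyrate S4 to S6), but not its sample, was read from the column name.

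RPKM times region length was a whole multiple of 1 read in 100% of values (within 0.01 reads), from which reads per region were recovered, 1255251 to 1828591 in all regions per library. Intervals and gaps in reads cover counting error only. The 423 regions were taken by their order of libraries, and the members and gene lists were chosen with earlier results of these data known. Named regions are the 12 with the largest ratio, the 8 with the widest gap, the 5 with most reads, those the authors called and up to 3 per list. Others, such as Cfl2, Pls1, Ftl1, Lmna, Coro2a's second region and the neighbours, were named after their values were seen.

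Limma 3.58.1 (R 4.3.3; trend, robust, Benjamini-Hochberg) was fitted to log2(RPKM + 1) over regions with a mean RPKM of at least 1, without covariates. Fold changes on that scale understate those of weak regions. Limma's voom on recovered reads was chosen after seeing the data. Both fits were tested on simulated data. Start sites came from GENCODE M21, and promoter windows and bases from RefSeq GRCm38.p6, whose sequence matched the genome in 500 of 500 windows checked. Alternatives covered the coverage minimum, scaling, a margin between groups, filters, the pseudocount and leaving out each library.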

Additional observations from a re-analysis of the deposited data

How the results depend on the processing

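The number of regions lower in every butyrate library was 423. It was 177 with a minimum of 10 CPM (143 in the reverse order). It was 50 where the highest butyrate library had to lie over 10% below the lowest vehicle library (44 in the reverse order). Leaving out each library in turn gave 669 without S5 to 794 without S6, where fewer libraries make the order easier to meet. In reverse order these gave 656 without S5 and 588 without S6, and without S1 there were 697 against 672 in reverse. A minimum of 2 CPM gave 564 (489 in reverse). A minimum on the butyrate mean gave 391 against 379 in reverse. Such a minimum by itself drops regions low in butyrate and admits regions high in it, so nothing is read from this shift. With 1 library left out, the lower count stayed above the reverse count each time. The 2 counts were close without S1, S4 (724 against 690) or S5. They were further apart without S2 (693 against 632), S3 (762 against 590) or S6. Nothing is read from the size of these counts. With 3 other scalings there were 403 to 413 (354 to 365 in reverse), of which 386 to 412 were shared with the 423. Limma called 0 regions with another pseudocount, without the filter, at an adjusted p of 0.1 and without each library, with 680 to 924 regions at an unadjusted p under 0.05, and voom on recovered reads called 9. The share at a start was 76.4% within 1 kb and 96.5% within 5 kb, and the median GC content was 54.4% over whole regions and 58.6% over their central 500 bp. None of the 84 named regions reversed under 9 alternatives each, which is no sign of stability. Leaving out a library could not reverse them, because by choice every butyrate library lies below every vehicle library. The scalings moved no log2 ratio of a named region by more than 0.00505. In 15 of the named regions the log2 ratio shrank by over 1.5 times without 1 library. The largest such shifts besides Apoa1 were at Zfp106 (-0.16, and -0.07 without S4), Rxra (-0.09, and -0.04 without S2) and Mafk (-0.16, and -0.08 without S1). The depth of 96.3 to 1063 reads per region limits gaps of a few percent. No paired analysis was possible because the columns carry library numbers S1 to S6 and no replicate numbers shared between the groups.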

Other observations

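Regions were also counted for 14 gene families by the start of the symbol, some of whose genes are in the lists. The families were chosen after values were seen, and the counts are to be read against 7.37% lower and 6.07% higher among all well-covered regions. Of 13 well-covered regions of peroxin genes (Pex), which build peroxisomes, 3 were members and 1 stood in the reverse order. Klf genes had 3 of 11 (Klf5, Klf9 and Klf10), Taf genes 2 of 11, Eif genes 3 of 36, Fbx genes 4 of 30 and Cdh genes 3 of 5, with none in the reverse order. Ppp2r regions were members in 3 of 12 cases (1 in reverse), Trim in 3 of 19 (1 in reverse), Tmem in 11 of 79 (4 in reverse) and Ube2 in 3 of 23 (3 in reverse). The median log2 ratio was positive in Ppp2r (0.02), Trim (0.02), Fbx (0.01) and Ube2 (0.07) and negative in the other 10 families.

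The remaining families had at most 3 well-covered regions and none in the reverse order. Both regions of glutathione peroxidase genes were members. Gpx1, which reduces hydrogen peroxide, had 2.44, 2.32 and 2.62 RPKM in vehicle and 1.91, 1.96 and 1.63 in butyrate, a gap of 18.2%. Gpx4, which reduces lipid peroxides, had 6.60, 8.07 and 6.82 against 6.17, 4.73 and 5.49. Prdx2, a peroxiredoxin, was a member as 1 of 2 regions of its family. Both regions of the serine proteases Tmprss2 and Tmprss4 were members, and Tmprss2 had 5.78, 5.23 and 5.50 against 4.24, 4.64 and 4.60. Vdac1 and Vdac2, which encode mitochondrial pores, were members as 2 of 3 regions, and Vdac1 had 4.63, 5.97 and 4.96 against 4.03, 4.34 and 4.18.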
